A study of Homo sapiens with 36 samples.

Results

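Translational efficiency, the amount of ribosome footprint a gene gives relative to its messenger RNA, was compared between WiT49 cells kept for 72 h in 2 nM actinomycin D (actD) and cells kept for 72 h in the vehicle dimethyl sulfoxide (DMSO). WiT49 is an established human cell line from an anaplastic Wilms tumor, a kidney tumor of childhood, and actD is a drug that inserts into DNA and blocks transcription, at low doses above all that of the ribosomal RNA genes. Each treatment had 3 RNA libraries and 3 footprint libraries, so 12 of the 36 libraries of the study entered the comparison. A gene was a member if it was listed in both 72 h count data sets and had enough counts in each assay, which held for 2311 of 43582 genes listed in both. Of these members 2214 were protein-coding and 97 were small or other non-coding RNAs. The groups share 1 cell line and differ by their labels in the agent alone, the labels name no separate cultures, and a p-value may therefore measure technical spread between libraries.

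A translating ribosome shields a short stretch of its mRNA from nuclease, and these protected fragments, the footprints, are sequenced. When footprints of a gene change more than its RNA, the number of footprints per transcript has changed. Ribosomal protein mRNAs and those of several translation factors begin with a C followed by a run of pyrimidines, the 5′ terminal oligopyrimidine (TOP) tract, through which growth signals acting on mTORC1 and LARP1 control their translation. Coding length matters to this readout as well, because ribosomes initiate more often per transcript on many short mRNAs than on long ones.

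The RNA libraries held 40221994 to 67342802 counts and the footprint libraries 152556 to 784322, of which 26831 to 283435 lay in protein-coding genes. The smallest was the DMSO footprint library 3, which listed 312 of the member genes at 0, against 12 to 47 in the other 5 footprint libraries. Mitochondrial ribosomal RNA took 12.4% to 21.0% of footprint counts with actD and 4.80% to 10.6% with DMSO, so the groups did not overlap in it, and they did not overlap in RNA either. Among markers of nephron progenitors and Wilms tumor, IGF2 (1516 to 1861 CPM of the whole library in RNA) and LIN28B (302 to 423) were high and WT1 and NCAM1 were between 3.57 and 18.2. SIX2, PAX2, PAX8, CITED1, SALL1, EYA1 and MEOX1 stayed under 1 in all 6 RNA libraries. CPM values are counts scaled to library size, and levels of member genes are CPM of the TMM-scaled total over the member genes, per assay. In the DMSO footprint library 3, 1 count of a member gene equals 15.7 CPM, so levels there can rest on few counts. In bulk libraries of this kind fewer cells and less RNA per cell cannot be told apart, and all values are relative to the other genes of a library.

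The change in translational efficiency, as the log2 change of footprints minus the log2 change of RNA, had a median of 0.03 over the 2311 genes, with quartiles at -0.45 and 0.61. It lay above 0 in 51.9% of genes and below 0 in 48.1%. The log2 changes of footprints were more widely spread, with an interquartile width of 1.35 against 0.55 for RNA. These widths are not corrected for depth, and the median gene had a mean of only 21.3 footprint counts. How much of the wider spread comes from sampling of few counts was not tested. Across genes the 2 changes went together (Spearman's rho 0.54 over 2311 genes of the same 12 libraries, as a description). The median standard error was 0.53, and in simulated counts of this size the test recovered 4.4% of genes changed by 1 log2 unit and 50% of those changed by 2.

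With edgeR's quasi-likelihood test and Benjamini-Hochberg adjustment, 10 of the 2311 genes (0.433%) passed an adjusted p of 0.05, 9 of them higher with actD (0.389%) and 1 lower (0.0433%). Before adjustment 345 genes (14.9%) had a p under 0.05, 212 higher (9.17%) and 133 lower (5.76%). Library totals in place of the TMM scaling gave 8 higher and 0 lower, and 1 TMM scaling over all 12 libraries gave 10 higher and 6 lower. The number of calls depended strongly on the tool: DESeq2 called 60 genes (2.6%), and limma voom, which lets each library have its own spread, called 174 (7.53%), 78 higher (3.38%) and 96 lower (4.15%). All 10 genes of the edgeR test were among the 174, and all 174 had the same sign in both fits.

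Of the 9 genes called higher, 8 were listed at 0 in all 3 DMSO footprint libraries, while their RNA was present in both groups. MOB1A, an adaptor of the Hippo pathway kinases LATS1 and LATS2 (chr2:74152528-74178898, GRCh38), had 102, 40 and 189 footprint counts in actD libraries 1 to 3. Its RNA was 824 ± 46.2 CPM with actD and 807 ± 223 CPM with DMSO (SD, n = 3). The other 7 had 10 to 88 footprint counts in each actD library. They were RPL35, a protein of the large ribosomal subunit (29, 11 and 33 counts), PRDX4, a peroxiredoxin of the endoplasmic reticulum (35, 15 and 24), and LAMTOR2, a subunit of the Ragulator complex that brings mTORC1 to lysosomes (23, 10 and 25). TMED5 of the vesicle cargo receptor family had 47, 15 and 59 counts, the sugar transporter SLC50A1 had 37, 10 and 42, and the membrane protein ITM2C had 35, 21 and 31. SNX22, a sorting nexin, had 88, 57 and 81 footprint counts with only 7 to 18 RNA counts per library.

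A listed 0 needs care in these libraries. PPIB, the cyclophilin of the endoplasmic reticulum, lies on the opposite strand and overlaps SNX22 over 1670 bases, and it was listed at 0 footprints in all 6 libraries although it had 7262 to 21287 RNA counts. Whether the counting used strand is not given in the sources used here, so SNX22 and PPIB cannot be told apart. In all, 11 member genes were listed at 0 in every DMSO footprint library and 0 were in every actD library. The 11 had enough footprint counts through the actD libraries alone. Footprint totals were 416131 to 784322 with actD and 152556 to 440974 with DMSO, so the numbers of genes listed at 0 do not give a direction. Without these 11 genes edgeR called 0 of 2300 genes, with 333 at an unadjusted p under 0.05 and a smallest adjusted p of 0.121, and DESeq2 still called 51 genes that were not listed at 0.

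Of the other 2 genes called, RPL28 of the large ribosomal subunit (chr19:55385345-55403250, GRCh38) rose. Its footprint level was 323, 311 and 724 CPM in the actD libraries and 56.6, 87.9 and 62.7 CPM in the DMSO libraries, with no overlap. RPL28 had 169, 89 and 482 footprint counts with actD and 20, 21 and 4 with DMSO. Its RNA level was 305, 297 and 275 CPM with actD and 272, 336 and 310 CPM with DMSO, with overlap. The fitted change in translational efficiency was thus 2.77 log2 units (SE 0.51, edgeR adjusted p = 0.0383). RPL28 overlaps UBE2S, a ubiquitin-conjugating enzyme on the opposite strand, over 3506 bases. UBE2S had 129, 57 and 128 footprint counts with actD and 25, 22 and 5 with DMSO. Its footprint change was 1.41 and its change in efficiency 0.83 (SE 0.57, edgeR adjusted p = 0.520). As use of strand is not given, counts in the shared stretch cannot be assigned to either gene, and the change of RPL28 is uncertain to that extent.

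ZNF281, a zinc finger transcription factor (chr1:200404940-200410056, GRCh38), was the gene that fell. Its footprint level was 9.55, 14 and 15 CPM with actD and 59.4, 54.4 and 62.7 CPM with DMSO, from 5, 4 and 10 counts against 21, 13 and 4 counts. Translational efficiency changed by -1.78 log2 units (SE 0.34, edgeR adjusted p = 0.0472). The call was lost in 17 of 23 alternatives, and that of RPL28 in 12 of 24.

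**Figure D1:**
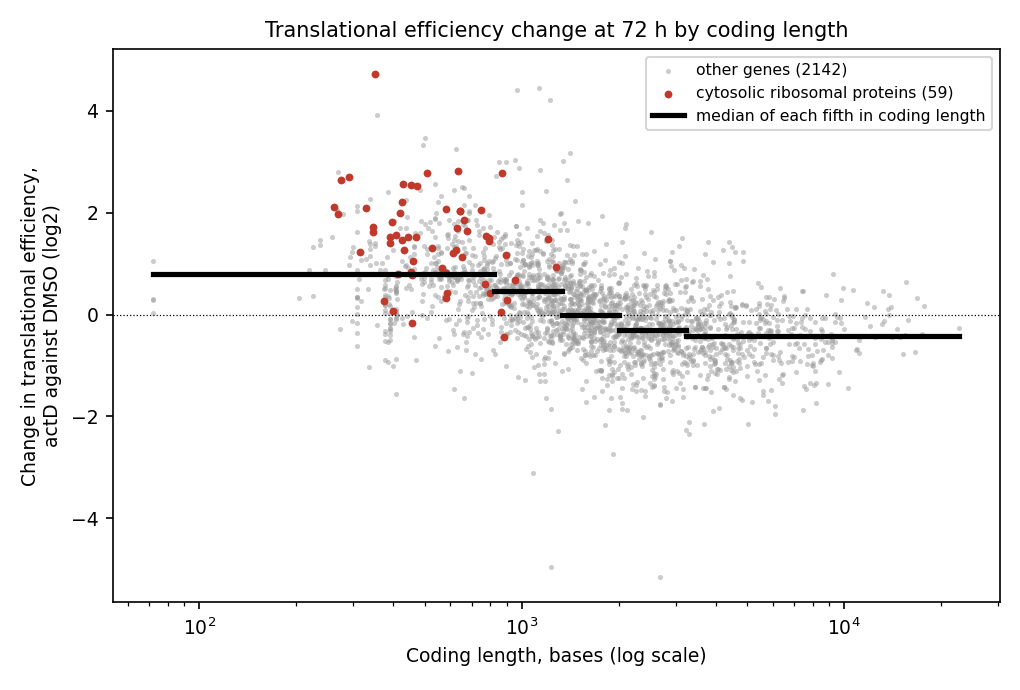
Each point is a protein-coding gene, with its coding length in bases on a log axis and its log2 change in translational efficiency at 72 h on the other axis; genes listed at 0 in a whole group are not drawn, but count in the medians. Black bars span 5 classes of equal size in coding length and step down from 0.80 in the shortest to -0.43 in the longest, and cytosolic ribosomal proteins, in red, lie mostly above the bar of their class.

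Coding length ordered the changes. Protein-coding genes were split into 5 classes of equal size by coding length. In the class with the shortest coding sequences (72 to 822 bases) translational efficiency changed by a median of 0.80, and it was above 0 in 83.3% of 443 genes. The medians of the next 4 classes were 0.46 (822 to 1335 bases), -0.01 (1335 to 1998 bases), -0.30 (2001 to 3231 bases) and -0.43 (3234 to 22776 bases). In the longest class 21.9% of 442 genes lay above 0. All 9 genes called higher were in the shortest class. Of these, 8 were listed at 0 with DMSO and had enough footprint counts through the actD libraries alone, so they do not bear on the order. Unadjusted p-values under 0.05 numbered 136 higher and 1 lower in the shortest class, and 3 higher and 71 lower in the longest.

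Over 2211 genes with an annotated coding sequence, Spearman's rho between coding length and the change was -0.56, and it was -0.54 over the 2151 genes that are not cytosolic ribosomal proteins. The footprint change alone gave -0.58 and the RNA change -0.25. The length of the longest protein-coding transcript, which includes the untranslated parts, was less closely related, with a rho of -0.39. The number of annotated transcripts (-0.11), the GC content of the transcript (0.10), the mean footprint count (0.12) and the mean RNA level (0.07) were weakly related to the change. These are descriptions across genes, which share the same 12 libraries and are not replicates.

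Single genes departed from this order. Among genes with a mean of at least 50 footprint counts, those with the longest coding sequences were MACF1, a linker of actin and microtubules (22776 bases), and AHNAK, a large scaffold protein (17670 bases). Their changes were -0.26 (SE 0.53) and 0.17 (SE 0.41), and neither passed the test. The shortest were MTRNR2L12 and MTRNR2L1 (72 bases each, 0.29, SE 1.02, and 1.06, SE 0.61), nuclear genes nearly identical to mitochondrial 16S ribosomal RNA, whose reads cannot be told apart from it. The MTRNR2L genes together took 17.1% to 40.8% of protein-coding footprint counts with actD and 7.99% to 36.1% with DMSO, and were left out of the shares that follow.

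**Figure D2:**
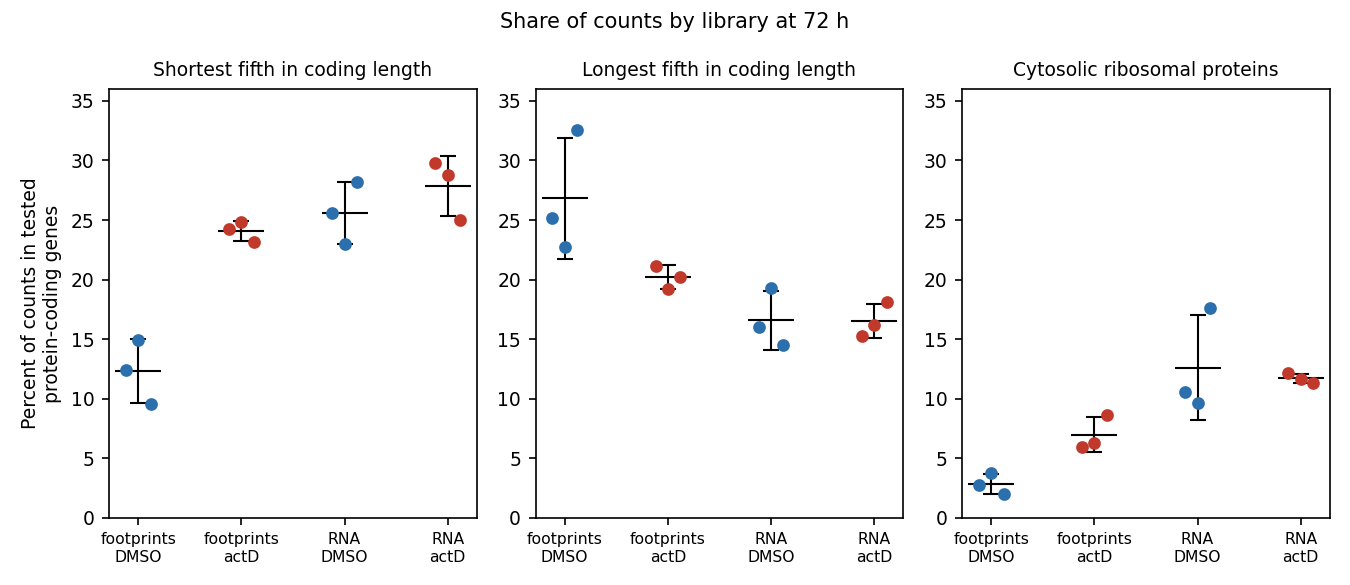
Each point is 1 library, showing the percent of its counts in tested protein-coding genes that fell in the shortest class, the longest class or the cytosolic ribosomal proteins, with bars for the mean and SD of 3 libraries. In footprints the 3 actD libraries sit at 23.1% to 24.8% for the shortest class, all above the DMSO libraries, and in RNA the treatments overlap in each panel.

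The shares of the shortest and the longest class were compared between single libraries. The shortest class took 24.2%, 24.8% and 23.1% of the footprint counts of tested protein-coding genes in the actD libraries and 12.4%, 14.9% and 9.58% in the DMSO libraries. The longest class took 21.2%, 19.2% and 20.2% with actD and 25.2%, 22.7% and 32.5% with DMSO. Neither pair of groups overlapped, while in RNA both did: the shortest class took 27.8% ± 2.52 of RNA counts with actD and 25.6% ± 2.61 with DMSO (SD, n = 3). With 3 libraries against 3, an exact two-sided permutation test gave p = 0.1 for each of the 2 footprint differences, the smallest p it can give, and 0.171 after adjustment over 12 such tests. Without the ribosomal proteins the shortest class still took 19.2% ± 1.89 of footprints with actD and 10.4% ± 2.24 with DMSO (SD, n = 3).

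The deviation of each library from the mean of the 6 footprint libraries was also set against coding length. Both treatments enter this mean, so opposite signs between them in part restate the contrast above. Spearman's rho of the deviation with coding length was -0.48, -0.56 and -0.35 for the actD libraries and 0.35, 0.12 and 0.52 for the DMSO libraries. In RNA it was -0.35, -0.23 and 0.07 with actD and 0.05, 0.37 and -0.04 with DMSO, which overlap. Without the shallow DMSO footprint library 3 the rho of the change with coding length was -0.49. The mitochondrial ribosomal RNA share moved with treatment in the same libraries, and its part in these differences was not tested.

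**Figure D3:**
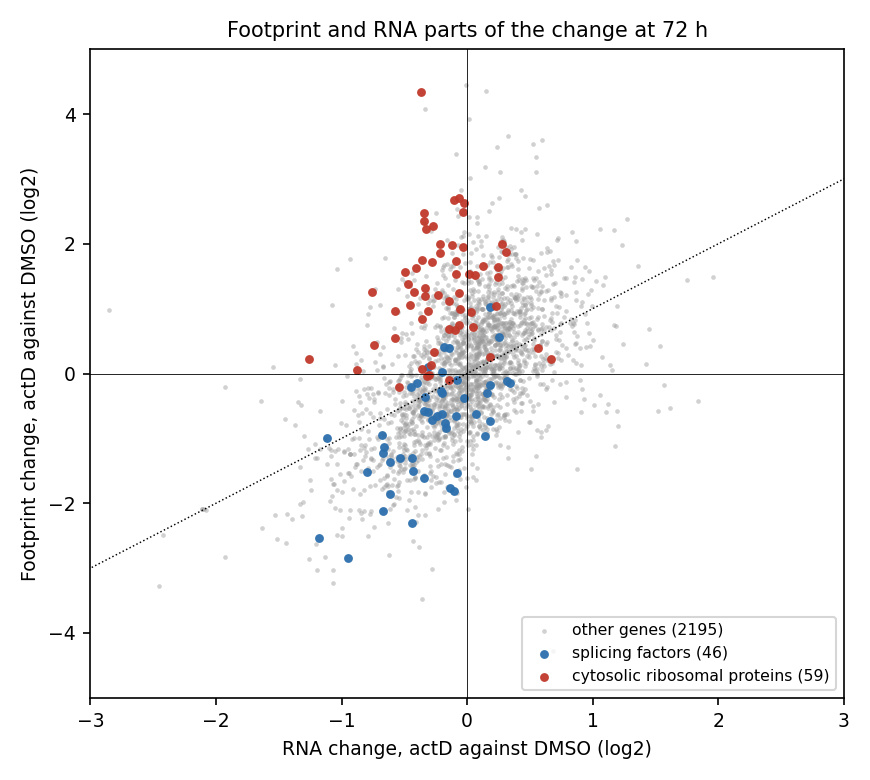
Each point is a gene, with the log2 change of its RNA on the horizontal axis and that of its footprints on the vertical axis, both actD against DMSO at 72 h; the dotted line marks equal changes, and 3 genes lie outside the axes. Cytosolic ribosomal proteins (red) lie mostly above the line and most splicing factors (blue) below it.

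Cytosolic ribosomal proteins, the protein parts of the 40S and 60S subunits, had the highest medians among the groups with at least 7 tested genes. Of 79 genes, 60 had enough counts, and 58 of these 60 had a change above 0, with a median of 1.51 against 0.03 over all genes. The large subunit (35 of 47 genes, median 1.52) and the small subunit (25 of 32 genes, median 1.51) were alike in this. RPL28 was called higher, against 0.389% of all genes. RPL35 was called as well, but it was listed at 0 with DMSO. It had enough footprint counts through the actD libraries alone, so its call does not bear on the group. The counts of this paragraph include RPL35. Of the 9 genes called higher over all genes, 8 were listed at 0 with DMSO, and without such genes edgeR called 0 of 2300. An unadjusted p under 0.05 was reached by 31 of the 60, all higher, against 9.17% of all genes, and 12 were higher in the voom fit, against 3.38%. The 2 genes below 0, named after their values were seen, were RPS2 (-0.44, SE 0.45) and RPS15 (-0.17, SE 0.46), and neither passed the test. Their coding sequences are short (median 492 bases), and set against the median of the tenth of genes nearest in coding length the ribosomal proteins were higher by a median of 0.71.

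The footprint changes of these genes had a median of 1.26 and their RNA changes a median of -0.22. Ribosomal proteins took 5.97%, 6.30% and 8.65% of footprint counts in the actD libraries and 2.74%, 3.76% and 2.01% in the DMSO libraries, with no overlap. In RNA they took 12.1%, 11.7% and 11.4% with actD and 10.5%, 9.62% and 17.6% with DMSO, and the highest of the 6 was DMSO library 3. Without that RNA library the ribosomal proteins' median exceeded that of all genes by 1.06 in place of 1.48, and the voom fit gave 0.88.

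RPL37A of the large subunit had 753, 555 and 1020 CPM of footprints with actD and 113, 151 and 110 CPM with DMSO. Its RNA was 1237, 1122 and 1332 CPM with actD and 831, 698 and 2224 CPM with DMSO. The DMSO footprint levels of RPL37A rest on 40, 36 and 7 counts. Footprints did not overlap between treatments and RNA did, and the change was 2.65 (SE 0.63, edgeR adjusted p = 0.0890). RPL13 (2.82), RPL37 (2.70) and RPL35A (2.10) had edgeR adjusted p-values of 0.0872, 0.10 and 0.10, and their footprint groups did not overlap. None of these 4 passed the edgeR test, and all 4 passed the voom fit.

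The ribosomal proteins with the most footprints differed in how they came to a higher ratio. RPLP2, a protein of the ribosomal stalk, had 1074, 852 and 901 CPM of footprints with actD and 238, 293 and 157 CPM with DMSO (1.72, SE 0.47). RPS13 (2.55, SE 1.02) ranged from 31.4 to 745 CPM (2 to 178 counts) among the DMSO libraries, so its error was large. For RPL3, which lies at the peptidyl transferase centre, footprints overlapped between the treatments (489, 597 and 1389 CPM with actD, 583, 1172 and 329 CPM with DMSO) and RNA was lower with actD (445 to 467 against 762 to 1450 CPM), for a change of 1.49 (SE 0.69). RPS3 (1.54, SE 0.64) overlapped by a narrow margin in footprints. RPL34, named after its values were seen, had the highest fitted value among the ribosomal proteins other than RPL35, which was listed at 0 with DMSO: 4.71 (SE 1.19), with 0 footprint counts in 2 of 3 DMSO libraries.

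The start sites of these genes are described here because many of their mRNAs are known for a TOP tract. Whether the tract has a part in the change was not tested. In the RefSeq start site table (GRCh38.p14, read 5′ to 3′ on the gene's own strand), a tract was counted where the first base is C and at least 4 more C or T follow. It was present in 32 of the 45 tested ribosomal protein genes with an entry (71.1%), and in 167 of 1759 tested protein-coding genes with an entry (9.49%). Over all 35116 entries, which include several for some genes and genes not tested here, the share was 4.07%. The windows below show 10 bases before and 15 from the start; capitals mark the tract from its first base. The first 6 are ribosomal protein genes with a tract, the next 3 are other mRNAs known for a TOP tract, and the last 2 are a short and a long gene without one. Ribosomal protein genes in which no tract was counted, such as RPL3, are not shown.

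RPL28, chr19:55385922-55385946, plus strand: cctcgccttcCTCTTTCCgtctcag
RPL35, chr9:124861943-124861967, minus strand: cgcctacttcCTCTTTCCCTCggag
RPL35A, chr3:197950180-197950204, plus strand: gggcctcgtcCTTCTCTTaccgcca
RPL37A, chr2:216498834-216498858, plus strand: gcgtctcttcCTTTCTgggctcgga
RPLP2, chr11:809957-809981, plus strand: tcggcgccttCCTTTTCCTCCCTgt
RPS13, chr11:17077653-17077677, minus strand: ctctcgctctCCTTTCgttgcctga
EEF1A1, chr6:73521018-73521042, minus strand: cgtgaacgttCTTTTTCgcaacggg
EEF2, chr19:3985449-3985473, minus strand: cgtcagcgttCTCTTCCgccgtcgt
RACK1, chr5:181243892-181243916, minus strand: gcttttctctCTCTCTTTCactgca
MYL6, chr12:56158349-56158373, plus strand: gagagtcggagccattactgcagga
CHD4, chr12:6606437-6606461, minus strand: ccccgcacagtgactcgggccagtg

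Ribosomal protein genes with a tract had a median change of 1.71 and those without one 1.21. Outside the ribosomal proteins 135 of 1714 protein-coding genes with an entry had a tract (7.88%), and their median change was 0.01, against -0.0013 for genes without one. Within the shortest class of these other genes the medians were 1.18 with a tract (27 genes) and 0.83 without. In the next 3 classes they were 0.60 with and 0.42 without, -0.13 with and -0.03 without, and -0.54 with and -0.29 without. Within the longest class they were -0.49 with a tract (26 genes) and -0.41 without, so the sign of the gap differed between short and long genes. A run of pyrimidines in this window does not show that the transcripts of these cells begin there.

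The other mRNAs known for a TOP tract had no common direction. Of 16 genes 9 had enough counts, 5 above 0 and 4 below, with a median of 0.01 and 0 calls. RACK1, a scaffold on the small subunit, had a change of 1.06 (SE 0.73), the elongation factor EEF2 0.75 (SE 0.61) and EEF1A1 2.65 (SE 1.58). EEF2 footprints were lower in the actD libraries (564, 555 and 1195 CPM) than in 2 of the DMSO libraries (1292, 1377 and 1082 CPM), and its RNA was lower still (965 to 1078 against 1611 to 4493 CPM). EEF1A1 footprints ranged from 2 to 764 counts among the actD libraries, which sets its error. Named after their values were seen, EEF1B2 (1.86, SE 0.56, coding length 675 bases) and PABPC1 (-1.18, SE 0.68, coding length 1908 bases) passed the voom fit in opposite directions.

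**Figure D4:**
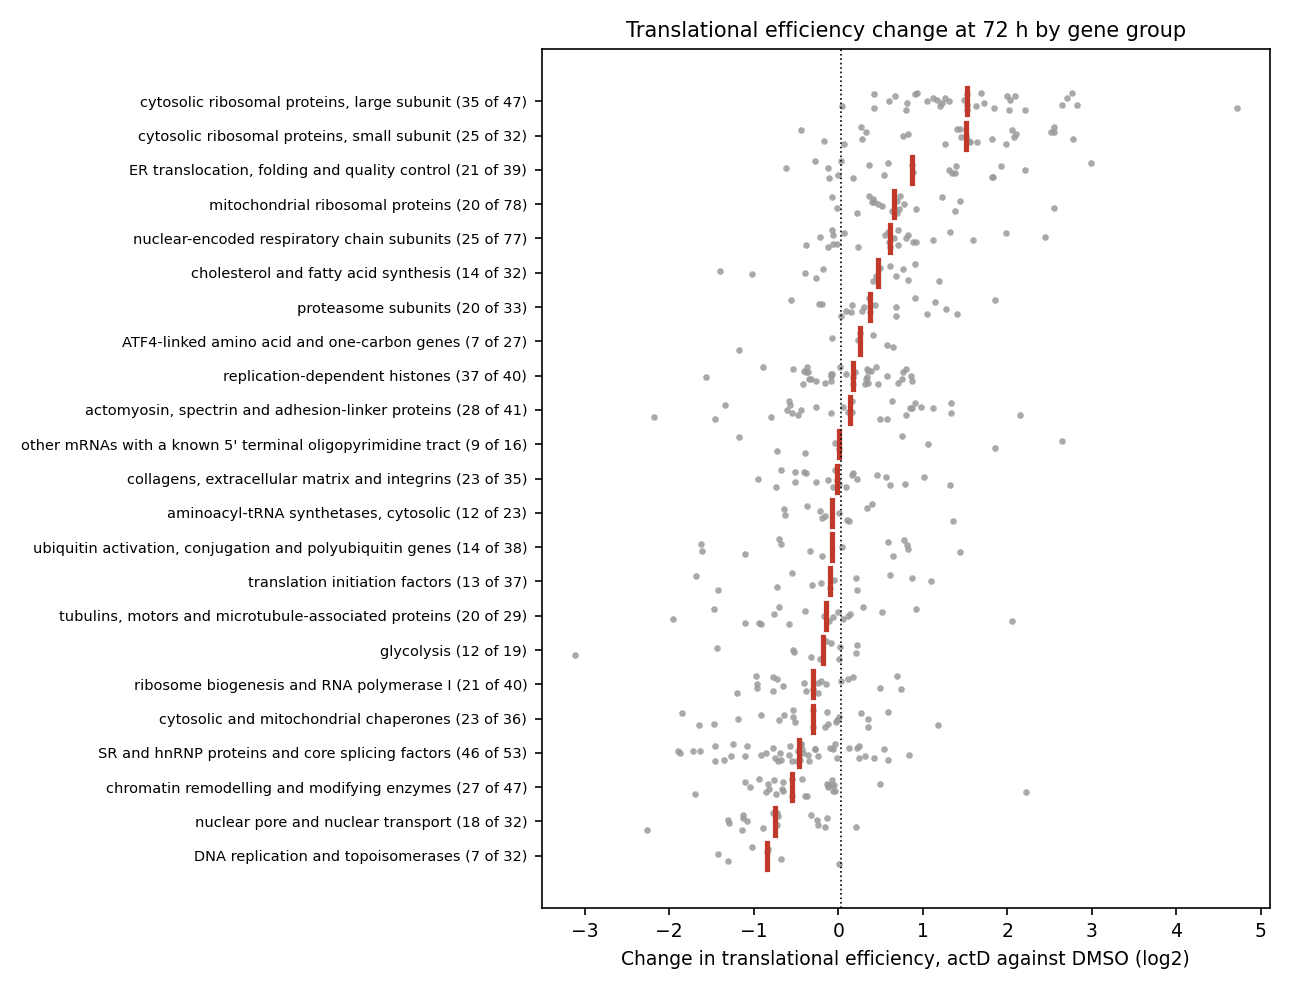
Each point is a member gene and each red bar the median of its group, on the log2 change in translational efficiency at 72 h; the dotted line is the median of all genes, the numbers give tested and listed members, and only groups with at least 7 tested genes are drawn. Genes listed at 0 in a whole group are not drawn, but count in the medians, which run from 1.52 for the large ribosomal subunit to -0.85 for DNA replication.

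Genes of the endoplasmic reticulum had the next highest median among those groups. Of 39 genes for translocation, folding and quality control 21 had enough counts, 16 were above 0 and the median was 0.88, or 0.56 above genes of like coding length. None was called by edgeR (0.433% over all genes), and 4 were higher in the voom fit (3.38% over all genes). An unadjusted p under 0.05 was reached by 5 of the 21, all higher (9.17% over all genes). These 5, named after their values were seen, were all small membrane proteins of import or retrieval. They were SSR1 (2.99, SE 0.98), SSR2 (2.21, SE 0.53) and SSR4 (1.82, SE 0.52) of the translocon-associated complex, and the retrieval receptors KDELR1 (1.31, SE 0.59) and KDELR2 (1.84, SE 0.53). SSR2 had 132, 126 and 93.1 CPM of footprints with actD and 14.1, 37.7 and 31.4 CPM with DMSO, the latter from 5, 9 and 2 counts. The luminal chaperones with the most footprints stayed near 0: HSP90B1 at -0.12 (SE 0.54), HSPA5, also known as BiP, at -0.01 (SE 0.55) and CALR at 0.18 (SE 0.44). SEC11A, the catalytic subunit of signal peptidase, was outside this list and had one of the smallest p-values among genes with at least 50 footprint counts. Its footprint level was 195, 185 and 179 CPM with actD and 65.0, 87.9 and 62.7 CPM with DMSO (1.80, SE 0.44, edgeR adjusted p = 0.0983). The DMSO levels of SEC11A rest on 23, 21 and 4 counts.

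MYL6, the essential light chain of non-muscle myosin, had the smallest adjusted p among the uncalled genes with a mean of at least 50 footprint counts. Its footprints were 407, 409 and 595 CPM with actD and 113, 113 and 94.0 CPM with DMSO, the latter from 40, 27 and 6 counts. Its RNA was 442, 429 and 395 CPM with actD and 437, 567 and 294 CPM with DMSO. The change was 2.15 (SE 0.44, edgeR adjusted p = 0.0581, called in 7 of 24 alternatives). MYL6B overlaps MYL6 on the same strand over 1487 bases, with 2, 2 and 52 footprint counts with actD and 0 in each DMSO library. CNBP, an RNA-binding zinc finger protein, had 294, 486 and 716 CPM of footprints with actD and 150, 226 and 172 CPM with DMSO (1.87, SE 0.47, edgeR adjusted p = 0.10). Neither gene's footprints overlapped between the treatments.

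Mitochondrial genes lay above 0 in most cases, and none was called by edgeR. Among mitochondrial ribosomal proteins 18 of 20 tested were above 0 (78 listed, median 0.66), and MRPL51, MRPL3 and MRPL38 had changes of 0.70 (SE 0.70), 0.72 (SE 0.42) and 0.47 (SE 0.45). AC087289.3 overlaps MRPL38 on the same strand, with 507 RNA counts in DMSO library 1 and 1 to 67 in the other 5 libraries, so the RNA counts of MRPL38 are uncertain. Among nuclear-encoded subunits of the respiratory chain 18 of 25 were above 0 (77 listed, median 0.61). Those with the most footprints were lower than this median or at it: ATP5F1B and ATP5F1A of ATP synthase at -0.06 (SE 0.57) and 0.24 (SE 0.47), and UQCRC1 of complex III at 0.61 (SE 0.42). Set against genes of like coding length, both medians were -0.07. Of 13 proteins encoded in mitochondrial DNA 3 had enough counts, MT-ND5 (1.07, SE 0.71), MT-ND4 (1.16, SE 0.71) and MT-CO1 (0.22, SE 0.70), and their footprint levels overlapped between treatments.

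The proteasome, the protease that degrades ubiquitinated proteins and is named in the title of the study, had 20 of 33 subunits tested. Of these 17 were above 0 and the median was 0.37, or 0.03 above genes of like coding length. No subunit was called by edgeR or by voom. PSMB5, the subunit with chymotrypsin-like activity, had 311, 360 and 446 CPM of footprints with actD and 204, 272 and 110 CPM with DMSO (1.05, SE 0.46, edgeR adjusted p = 0.303). The ATPase PSMC5 had a change of 0.69 (SE 0.55). PSMB1 had 1.85 (SE 1.30), with 2 of 3 DMSO libraries listed at 0 and the third at 322 CPM.

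Splicing factors had a median below 0. Of 53 SR proteins, hnRNP proteins and core splicing factors 46 had enough counts, 37 of them below 0, with a median of -0.46, or -0.72 against genes of like coding length. None was called by edgeR, 9 had an unadjusted p under 0.05 in the lower direction (5.76% over all genes) and 1 in the higher (9.17% over all genes), and 9 were lower in the voom fit (4.15% over all genes). SFPQ, a DNA- and RNA-binding splicing factor of paraspeckles, had 40.1, 52.4 and 88.6 CPM of footprints with actD and 286, 427 and 172 CPM with DMSO, and its RNA overlapped (323 to 374 against 299 to 713 CPM). Its change was -1.87 (SE 0.59, edgeR adjusted p = 0.189). SF3B3 of the U2 particle had 91.7, 122 and 143 CPM with actD and 619, 607 and 298 CPM with DMSO (-1.45, SE 0.48). The helicase DDX5 (-1.26, SE 0.70), HNRNPU (-0.86, SE 0.46) and HNRNPK (-0.44, SE 0.59) are the splicing genes with the most footprints, and only DDX5 of these passed the voom fit.

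Of 47 chromatin remodelling and modifying enzymes 27 were tested and 25 of these lay below 0 (median -0.54). Most have long coding sequences (median 5820 bases), and against genes of like length the median was -0.14. CHD4, the helicase of the NuRD complex, had 89.8, 80.3 and 114 CPM of footprints with actD and 588, 1042 and 361 CPM with DMSO. Its RNA was also lower (172 to 234 against 266 to 758 CPM), and the change in efficiency was -1.69 (SE 0.64, edgeR adjusted p = 0.258). SMARCA4 had -0.37 (SE 0.46) and TRRAP -0.05 (SE 0.41). The 2 genes above 0, named after their values were seen, were SMARCE1 (0.50, SE 0.40) and the histone deacetylase HDAC2 (2.22, SE 0.54, edgeR adjusted p = 0.10), which passed the voom fit. HDAC2 had 84.1, 129 and 57.1 CPM of footprints with actD and 17.0, 16.7 and 47.0 CPM with DMSO, from 3 to 44 counts per library.

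Nuclear pore and transport genes (18 of 32 tested, 17 below 0, median -0.75) and DNA replication genes (7 of 32 tested, 6 below 0, median -0.85) had lower medians than the splicing factors. Against genes of like coding length their medians were -0.56 and -0.51, which are not lower than the -0.72 of the splicing factors. The importins IPO7 and TNPO1 and the pore basket protein TPR had changes of -0.73 (SE 0.53), -0.25 (SE 0.44) and -0.16 (SE 0.37). IPO4, named after its values were seen, had -2.26 (SE 0.48, edgeR adjusted p = 0.0603). Its RNA was 28.6, 31.6 and 21.0 CPM with actD and 5.87, 7.65 and 9.18 CPM with DMSO, and its footprint change was -0.43. AL136295.4 overlaps IPO4 on the same strand over 8570 bases, with 1, 1 and 423 RNA counts with actD and 967, 1296 and 605 with DMSO, so the RNA counts of IPO4 are uncertain. TOP2A had 176, 189 and 177 CPM of footprints with actD and 874, 1051 and 439 CPM with DMSO (-1.30, SE 0.61). TOP2B (-0.83, SE 0.47) and the helicase subunit MCM7 (-0.68, SE 0.71) had smaller changes. The genes above 0 were KPNB1 (0.21, SE 0.71) and FEN1 (0.01, SE 0.52), and RFC1 (-1.43, SE 0.41) and TOP2A were 2 of the 3 replication genes lower in the voom fit. KPNB1, FEN1 and RFC1 were named after their values were seen.

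**Figure D5:**
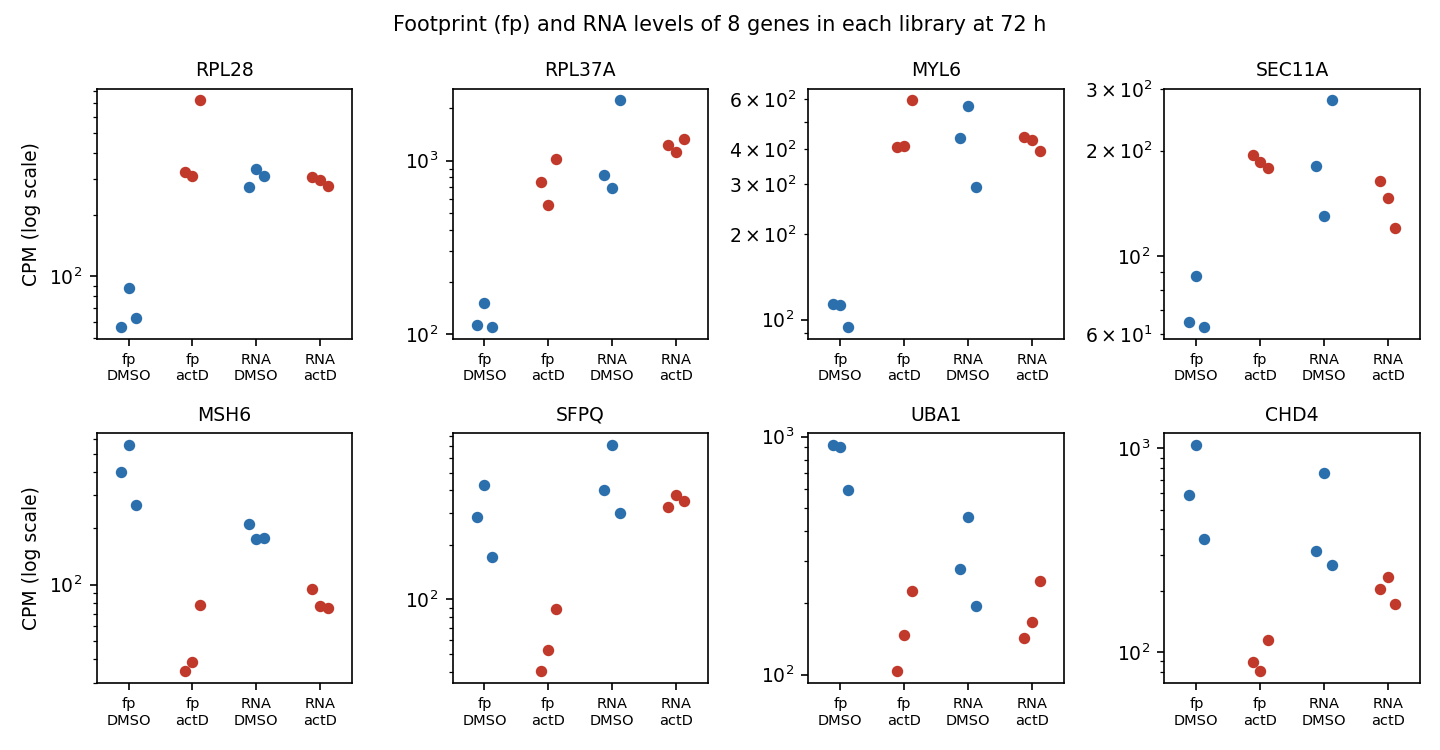
Points give the CPM of 8 genes in each 72 h library on log axes that differ between panels, 3 libraries a group, DMSO in blue and actD in red. The top row shows genes whose footprints were higher in each actD library while RNA overlapped, and the bottom row genes whose footprints were lower in each actD library.

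The lower genes with the smallest p-values mostly had long coding sequences. Among genes with at least 50 footprint counts, MSH6, a subunit of the mismatch recognition complex (4080 coding bases), had the smallest p. Its footprints were 34.4, 38.4 and 78.1 CPM with actD and 402, 561 and 266 CPM with DMSO, and its RNA was 94.7, 77.2 and 75.4 CPM with actD and 211, 175 and 178 CPM with DMSO. Neither overlapped between the treatments, and the change in efficiency was -1.83 (SE 0.48, edgeR adjusted p = 0.110). PRRC2A, an RNA-binding protein, had a narrow spread, 95.5, 108.3 and 99.1 CPM of footprints with actD and 232, 247 and 235 CPM with DMSO, with overlapping RNA (-1.17, SE 0.32, edgeR adjusted p = 0.127). The DMSO levels of PRRC2A rest on 82, 59 and 15 counts. UBA1, the main ubiquitin-activating enzyme, had 103, 147 and 224 CPM with actD and 925, 900 and 596 CPM with DMSO (-1.62, SE 0.56, edgeR adjusted p = 0.228).

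CAND1, which exchanges the substrate receptors of cullin ligases (-1.44, SE 0.49), and CKAP5, a microtubule polymerase (-1.96, SE 0.71), had lower footprints in each actD library than in any DMSO library. So had TAF15, an RNA-binding protein of the FET family (-1.25, SE 0.50), and the deubiquitinase USP11 (-0.79, SE 0.32). No gene of these 7 passed the edgeR test, and all but TAF15 and USP11 passed the voom fit. AP2B1 and RASL10B overlap TAF15 on the same strand over 12619 and 11873 bases. AP2B1 had 5530 to 6224 RNA counts with actD and 7551 to 26597 with DMSO, and TAF15 had 1342 to 3554 over the 6 RNA libraries. The RNA counts of TAF15 are therefore uncertain.

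The remaining groups had medians within 0.5 of 0. Chaperones (23 of 36 tested) had 6 genes above 0 and a median of -0.30, with HSP90AA1 at -0.30 (SE 0.66), HSP90AB1 at -0.64 (SE 0.45) and the chaperonin subunit CCT8 at 0.58 (SE 0.50). Ribosome biogenesis and RNA polymerase I genes (21 of 40 tested) had 6 above 0 and a median of -0.30. Initiation factors (13 of 37 tested, median -0.10), cytosolic aminoacyl-tRNA synthetases (12 of 23, -0.07), ubiquitin pathway genes (14 of 38, -0.07) and glycolysis (12 of 19, -0.18) were close to 0. So were actomyosin genes (28 of 41, 0.14), microtubule genes (20 of 29, -0.14), matrix genes and integrins (23 of 35, -0.01) and ATF4-linked genes (7 of 27, 0.26). Lipid synthesis (14 of 32) had a median of 0.47. No member of these groups was called by edgeR. Of the 14 ubiquitin pathway genes, 3 had an unadjusted p under 0.05 in the lower direction and 1 in the higher. Of the 12 glycolysis genes 2 did so in the lower direction (5.76% over all genes). In each of these 2 groups 2 genes were lower in the voom fit (4.15% over all genes). The replication-dependent histones, which have many near-identical copies and very short coding sequences, had a median of 0.17 (37 of 40 tested), or -0.65 against genes of like coding length. Of 26 p53 target genes only CCNG1, cyclin G1, had enough footprints (1.53, SE 0.60, edgeR adjusted p = 0.259).

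Whether the change at 72 h differed from that at 6 h, with the same dose and vehicle and 3 libraries in each of 8 groups, was tested as a 3-way interaction over 24 libraries. Of 843 genes with enough counts at both times edgeR called 0 (0%), with a smallest adjusted p of 0.617, and 41 (4.86%) had an unadjusted p under 0.05. DESeq2 called 3 (0.356%), MOB1A, HDGF and HDAC2. HDGF, a growth factor named after its values were seen, had 60, 41 and 124 footprint counts with actD and 13, 18 and 4 with DMSO at 72 h, and 0, 0 and 9 with actD and 27, 17 and 4 with DMSO at 6 h. MOB1A was not listed at 0 in a whole group at 6 h, with 0, 16 and 26 footprint counts with actD and 12, 3 and 8 with DMSO.

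The difference between the time points was ordered in the same way. The ribosomal proteins tested at both times had a larger change at 72 h than at 6 h in 30 of 31 genes, with a median difference of 1.34 against 0.01 over all 843 genes, and 8 had an unadjusted p under 0.05. Among genes named above other than MOB1A, which was listed at 0 with DMSO at 72 h, the largest differences relative to their error were those of SEC11A (1.95, SE 0.57), RPL37 (2.38, SE 0.78) and CNBP (1.74, SE 0.59), each with an edgeR adjusted p of 0.617. UBA1 differed by -1.51 (SE 0.64). Over 777 genes tested at both times with a coding length, Spearman's rho of the change with coding length was -0.13 at 6 h and -0.53 at 72 h. The difference between these 2 values was not tested across samples, and the 2 time points share no libraries.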

How the data were processed

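The authors deposited estimated counts per gene, whole numbers, for RNA and footprint libraries at each time. HISAT2, StringTie and hg38 are named, per the submitters' processing notes, with no versions or roles; use of strand is not given in the sources used here. Per the labels' protocols, footprints were depleted of ribosomal RNA, and 2 RNA extraction kits and 2 RNA library kits were used without saying for which library, so these cannot be told apart from the groups. Coding lengths came from GENCODE 29, in which 99.4% of the identifiers were found without version.

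Genes that passed edgeR's filter on low counts in each assay were fitted with edgeR 4.0.16 (R 4.3.3) as assay by treatment over 12 libraries, with TMM scaling within each assay and Benjamini-Hochberg adjustment at 0.05. Alternatives were DESeq2 1.42.0, limma 3.58.1 (voom with sample quality weights), other scalings and filters, thinning of footprint libraries to equal depth, a replicate block and leaving out each library. The fits without genes listed at 0 in a whole group and with TMM factors from each assay's own filter, and the shares without MTRNR2L genes and without ribosomal proteins, were added after seeing the data. On simulated counts for the 2311 genes the edgeR test recovered 4.4%, 50.0% and 77.3% of genes changed by 1, 2 and 3 log2 units, and called 1 unchanged gene. Replicates were distinct libraries by a chi-square comparison of their counts.

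Genes named are those called, the 10 with the smallest p in each direction among genes with a mean of at least 50 footprint counts, the 3 of each list with the most footprints (not printed for lists given by counts alone) and the 2 longest and 2 shortest coding sequences. Others are said to be named after their values were seen. Some genes that the rule names are not reported here. The members and lists were chosen with earlier results of these data known.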

Additional observations from a re-analysis of the deposited data

How the results depend on the processing

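Footprint depth limits these results: the median gene had a mean of 21.3 footprint counts. The number of genes called with edgeR (10) was 60 with DESeq2, 174 with voom, 16 with TMM over all 12 libraries, 24 with TMM factors from each assay's own filter, 2 of 419 genes with a mean of at least 50 footprint counts, 3 after thinning and 0 without genes listed at 0 in a whole group. Leaving out 1 library gave 7 to 41 calls, with 41 without footprint actD library 2, 29 without actD library 3, 25 without DMSO library 3 and 18 without DMSO library 2. With the replicate block no gene passed (0), and 429 had p under 0.05 before adjustment. In deviations from their group means, same-numbered RNA and footprint libraries correlated at 0.176, 0.184 and 0.415 with actD and 0.142, 0.058 and 0.145 with DMSO. Libraries 3 correlated best with each other in both groups, though with DMSO hardly more than libraries 1 did (0.145 against 0.142). With libraries of other numbers they gave -0.304 to -0.264 with actD and -0.165 to -0.054 with DMSO. Deviations from a mean of 3 libraries sum to 0 for each gene, so these negative values follow in part from the positive ones. Libraries 1 and 2 were not separated by number: with actD, RNA library 1 and footprint library 2 gave 0.218. Whether same-numbered libraries share a culture or a batch was not tested. The cause of the differences in the number of calls was not tested.

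Library totals moved the median of all genes from 0.03 to 0.19, and TMM factors from each assay's own filter moved it to 0.18. For 72 h against 6 h, 3 genes were called with DESeq2, 1 with a looser filter and 0 to 13 when 1 library was left out, 13 without 6 h footprint actD library 3. The ribosomal proteins' median above all genes was 0.88 with voom and 1.06 to 1.69 when 1 library was left out. The rho with coding length was -0.44 with the looser filter and -0.60 to -0.49 when 1 library was left out. The rho with transcript length was -0.23 with the looser filter, -0.43 to -0.32 when 1 library was left out, and -0.56 with coding length in its place.

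None of the genes that changed sign was called. With voom RACK1 was -0.0093, EEF2 -0.28, MT-CO1 -0.042, ATP5F1A -0.11, MRPL38 -0.22, CALR -0.045 and HSPA5 0.12. With library totals HSP90B1 was 0.19, HSPA5 0.34, TRRAP 0.23, TPR 0.046 and MACF1 0.13. With the looser filter ATP5F1B was 0.11, HSP90B1 0.14, HSPA5 0.24, TRRAP 0.17, TPR 0.049 and MACF1 0.0034. At a mean of at least 50 footprint counts ATP5F1A was -0.082, CALR -0.13, AHNAK -0.17, MTRNR2L12 -0.10 and KPNB1 -0.038. With protein-coding genes only ATP5F1B was 0.066, HSP90B1 0.0014, HSPA5 0.099 and TRRAP 0.063. After thinning MT-CO1 was -0.067, ATP5F1B 0.025, HSPA5 0.035, TRRAP 0.096, TPR 0.13 and FEN1 -0.19. With TMM factors from each assay's own filter ATP5F1B was 0.091, HSP90B1 0.012, HSPA5 0.11 and TRRAP 0.11. HSPA5 was 0.018 and TRRAP 0.0088 with DESeq2, HSPA5 was 0.014 with DESeq2's size factors and 0.067 with the replicate block, and FEN1 was -0.058 with TMM over all 12 libraries.
When 1 library was left out, the ranges of genes that changed sign were MT-CO1 -0.15 to 0.50, ATP5F1B -0.45 to 0.37, ATP5F1A -0.043 to 0.51, HSP90AA1 -0.65 to 0.12, HSP90B1 -0.37 to 0.29, HSPA5 -0.23 to 0.38, TRRAP -0.29 to 0.11, MTRNR2L12 -0.061 to 1.44, MACF1 -0.51 to 0.32, KPNB1 -0.19 to 0.51, RPS15 -0.48 to 0.073 and FEN1 -0.18 to 0.29.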
